A study of Mus musculus with 6 samples.

Results

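Aminoacyl-tRNA synthetases are the enzymes that join each amino acid to its tRNA, the step that gives the genetic code its meaning. The cytosol and the mitochondrion have largely separate sets, encoded by nuclear genes whose mitochondrial forms carry a final 2 in their symbols. In animal cells several cytosolic enzymes are held together with 3 non-enzymatic scaffold proteins in the multi-synthetase complex. Many cytosolic synthetase genes are also known targets of ATF4, a transcription factor that is translated when amino acids run short or other stresses phosphorylate the initiation factor eIF2. The genes described here were taken by symbol from the whole enzyme family, with earlier results of these data known. They were 20 cytosolic enzymes, 16 mitochondrial enzymes and the scaffold genes Aimp1, Aimp2 and Eef1e1, 39 in all. Farsa and Farsb, subunits of the same cytosolic phenylalanine enzyme, are counted separately as enzymes throughout. A probe set with a single gene symbol existed for 36 of them, out of 15964 named genes, and these 36 genes had 62 of the 36899 probe sets. Dars, Pars2 and Yars2 were not analysed here.

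The arrays compared central memory (CM) with effector/effector memory (E/EM) CD8+ T cells, both grown from cells of female C57Bl/6 mice that carry the P14 T cell receptor as a transgene. Spleen and lymph node cells of both groups were given the receptor's peptide for 2 days. CM cells were then kept in IL-15 and E/EM cells in IL-2 for 7 days, and each was sorted on a surface marker, at a high level for CM and a low level for E/EM. Total RNA of each kind was read on 3 array types, SubA, SubB and SubC, with 1 array per kind and type, so there were no replicates and no p-value was computed. The labels do not say how many mice or cultures stand behind an array, or whether one RNA preparation was put on all 3 types.

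All values are probe set intensities, in arbitrary units, and every ratio is the log2 of CM over E/EM intensity on arrays of the same type, so a negative ratio means a lower signal in CM cells. A ratio was formed where both intensities lay above a floor set by bacterial control probe sets, 31.28 on SubA, 88.12 on SubB and 194.34 on SubC. A gene's ratio is the mean over its probe sets, with the standard deviation (SD) over probe sets, and a gene given without an SD rests on 1 probe set. The median SD was 0.32 over 4094 genes with more than 1 measured probe set. A second gauge of error came from 22 control probe sets for mouse sequences that were above the floor on all 3 types. Their ratios had a median SD of 0.26 over the types, from 0.09 to 0.54. Ratios of the size of these spreads have no settled direction for a single gene. Neither gauge measures variation between cultures or mice, so larger ratios are not settled by them either. With so few arrays, precision is limited throughout.

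All 7 CD8 T cell marker genes on the arrays were measured in both kinds of cells, with 4 ratios above and 3 below 0. Cd8b1, the CD8 beta chain, had 12298.3 in CM and 8709.3 in E/EM cells, while Cd3g, a chain of the T cell receptor complex, had 3079.7 in CM and 5083.7 in E/EM cells. Summed over the list on SubA, CD8 T cell markers had 38768.5 in CM and 35379.4 in E/EM cells. B cell markers had 651.8 in CM and 631.1 in E/EM cells, macrophage and monocyte markers 343.5 in CM and 540.4 in E/EM cells, and dendritic cell markers 824.0 in CM and 1228.9 in E/EM cells. The dendritic cell sum went the other way on SubC, with 441.9 in CM and 276.4 in E/EM cells, and on SubB, under the floor, with 54.4 in CM and 19.4 in E/EM cells. Within SubA, Itgax had 130.3 in CM and 43.1 in E/EM cells, but H2-Ab1 had 211.0 in CM and 516.5 in E/EM cells. The macrophage genes Adgre1, Lyz2 and Itgam were at or under the floor on every array. Of the same list, Cd68 had 89.4 in CM and 199.5 in E/EM cells, and Cd14 88.2 in CM and 136.6 in E/EM cells. Csf1r had a ratio of -0.06 ± 0.21 (SD, 2 probe sets), and Fcgr1 was at least 1.18-fold lower in CM cells. On SubA erythroid markers had 245.0 in CM and 223.1 in E/EM cells, and helper T cell markers 151.5 in CM and 288.8 in E/EM cells. Natural killer cell markers had 2823.7 in CM and 1635.8 in E/EM cells, nearly all from Eomes, a gene also of memory CD8 T cells. Ncr1, the other gene of that list on the arrays, was under the floor, with 1.6 in CM and 17.2 in E/EM cells. The 2 helper T cell genes went opposite ways, since Cd4 had 131.7 in CM and 49.3 in E/EM cells on SubA and the transcription factor gene Zbtb7b was at least 9.74-fold lower in CM cells on SubB. The part of such cells in the synthetase ratios was not tested, and in RNA from many cells fewer cells with a transcript and less of it per cell cannot be told apart.

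The cytosolic synthetases were mostly lower in CM cells, by modest amounts. Of 18 measured enzymes 15 had a negative ratio, with a median of -0.34, or 1.27-fold lower, and a range from -0.99 for Cars to 0.05 for Qars. None was at least 2-fold lower and none 2-fold higher, against 5.61% and 2.73% of all 10946 measured named genes. At least 1.5-fold lower were 4 of 18, namely Cars, Mars, Aars and Gars, against 13.9% of all genes, and 0 of 18 were 1.5-fold higher, against 10.1% of all genes. Negative ratios made up 83.3% of the cytosolic enzymes and 50.3% of all genes, whose median ratio was -0.0025. By probe set, 22 of the 28 measured for cytosolic enzymes had a negative ratio. The 15 enzymes with a negative ratio include Farsb, whose probe sets contradicted each other.

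**Figure D1:**
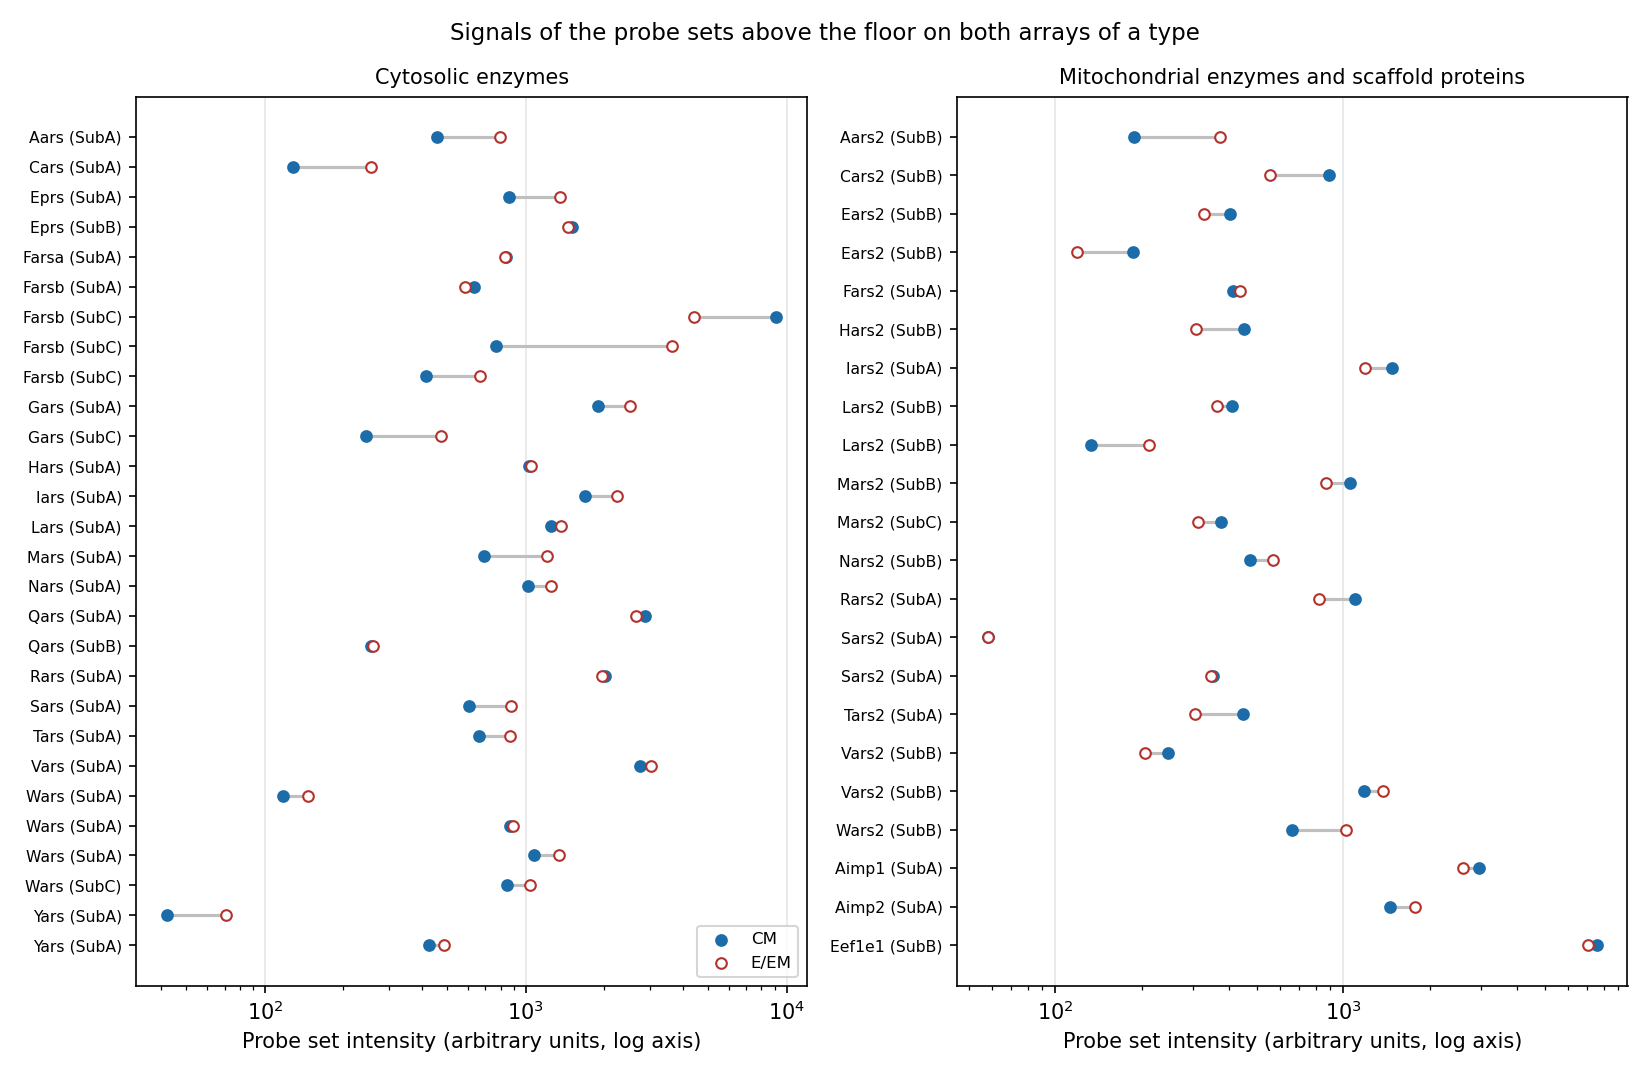
Intensity (log axis, arbitrary units) of each measured probe set in CM cells (filled circles) and E/EM cells (open circles), with the array type in brackets and 1 array per point. The CM circle lies left of the E/EM circle for 22 of 28 probe sets of cytosolic enzymes and for 6 of 19 of mitochondrial enzymes.

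Among cytosolic enzymes that work outside the multi-synthetase complex, 11 of 12 had a negative ratio, with a median of -0.41. Cars, the cysteine enzyme, had 127.8 in CM cells against 253.9 in E/EM cells, a ratio of -0.99. This was the lowest measured cytosolic ratio, and 5.74% of all measured genes had a lower ratio. Aars, the alanine enzyme, had 457.1 in CM cells and 796.1 in E/EM cells, a ratio of -0.80. A further SubB probe set, listed for both Aars and its neighbour Exosc6 and therefore not counted, had 1839.9 in CM and 1558.1 in E/EM cells, the other way round. Gars, whose gene makes both the cytosolic and the mitochondrial glycine enzyme, was lower in CM cells on both array types that measured it. Its intensities were 1890.3 in CM and 2498.7 in E/EM cells on SubA, and 244.2 in CM and 473.7 in E/EM cells on SubC, for a mean ratio of -0.68 ± 0.39 (SD, 2 probe sets).

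Sars, the serine enzyme, which also charges the tRNA for selenocysteine, had 606.8 in CM against 874.5 in E/EM cells, a ratio of -0.53. Yars, the tyrosine enzyme, was lower in CM cells by both SubA probe sets, 425.2 in CM against 484.0 in E/EM cells and, near the floor, 42.1 in CM against 71.0 in E/EM cells. Its mean ratio was -0.47 ± 0.40 (SD, 2 probe sets). Tars, the threonine enzyme, had 663.4 in CM and 866.8 in E/EM cells, a ratio of -0.39. All 3 enzymes were thus lower in CM cells, each on a single pair of arrays.

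Wars, the tryptophan enzyme, which interferon gamma induces in human cells, was read by several probe sets. All 4 measured ones lay below 0, from -0.33 to -0.04, with a mean of -0.24 ± 0.14 (SD, 4 probe sets). Its clearest SubA probe sets had 1070.0 in CM against 1344.0 in E/EM cells and 865.8 in CM against 892.8 in E/EM cells, and the SubC one had 849.5 in CM against 1033.0 in E/EM cells. Without probe sets marked as shared with other sequences, only the one at -0.04 was left. Nars, for asparagine, had 1016.0 in CM and 1247.4 in E/EM cells, a ratio of -0.30. Vars, for valine, had 2730.1 in CM and 3015.7 in E/EM cells (-0.14), and Hars, for histidine, 1027.4 in CM and 1048.8 in E/EM cells (-0.03). The mean ratio of Wars and the ratios of Vars and Hars are smaller in size than the control probe sets' median SD of 0.26. The ratio of Nars is smaller in size than the median SD of 0.32 over probe sets.

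The cytosolic phenylalanine enzyme is built from an alpha subunit, Farsa, and a beta subunit, Farsb. Farsa had 841.2 in CM and 828.2 in E/EM cells, a ratio of 0.02, the only positive one among the enzymes outside the complex. The probe sets of Farsb contradicted each other. On SubA the ratio was 0.12, with 632.6 in CM and 583.3 in E/EM cells. On SubC it was 1.05 (9109.9 in CM, 4396.4 in E/EM), -0.69 (414.8 in CM, 667.2 in E/EM) and -2.24 (770.5 in CM, 3640.7 in E/EM). The first and last of the SubC probe sets are marked as shared or incomplete designs. The mean of -0.44 ± 1.39 (SD, 4 probe sets) therefore has no settled direction, and without Farsb the cytosolic median was -0.30.

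The synthetases of the multi-synthetase complex had a median of -0.22 over 6 measured enzymes, of which 4 were negative. Mars, the methionine enzyme, which also charges the initiator tRNA, had 688.3 in CM against 1206.9 in E/EM cells, a ratio of -0.81, the lowest of the 6. Iars, for isoleucine, had 1685.3 in CM and 2239.2 in E/EM cells, a ratio of -0.41. Eprs, a single protein that charges both glutamate and proline, gave 859.8 in CM against 1353.0 in E/EM cells on SubA but 1500.9 in CM against 1448.5 in E/EM cells on SubB. Its ratios of -0.65 and 0.05 average to -0.30 ± 0.50 (SD, 2 probe sets), so the direction is not settled. Lars, the leucine enzyme, known in human cells also as a leucine sensor of the mTORC1 pathway, had 1245.7 in CM and 1364.4 in E/EM cells (-0.13).

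Qars, for glutamine, and Rars, for arginine, stood near 0. Qars had 2867.3 in CM and 2632.7 in E/EM cells on SubA and 255.5 in CM and 259.8 in E/EM cells on SubB, for a mean of 0.05 ± 0.10 (SD, 2 probe sets). Rars had 2011.7 in CM and 1954.2 in E/EM cells (0.04). Kars, the lysine enzyme of both compartments, was above the floor in E/EM cells alone, with 26.9 in CM and 53.3 in E/EM cells on SubA. It was at least 1.70-fold lower in CM cells. With Kars at that bound the cytosolic median was -0.39 and 5 of 19 enzymes were at least 1.5-fold lower.

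The scaffold genes had small ratios of both signs. Aimp2 had 1449.7 in CM and 1774.4 in E/EM cells, a ratio of -0.29. Aimp1 had 2955.1 in CM and 2598.5 in E/EM cells (0.19), and Eef1e1, also known as AIMP3, had 7589.4 in CM and 7073.7 in E/EM cells (0.10). All 3 were under 1.5-fold and smaller in size than the median SD of 0.32 over probe sets. None of them therefore has a settled direction.

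**Figure D2:**
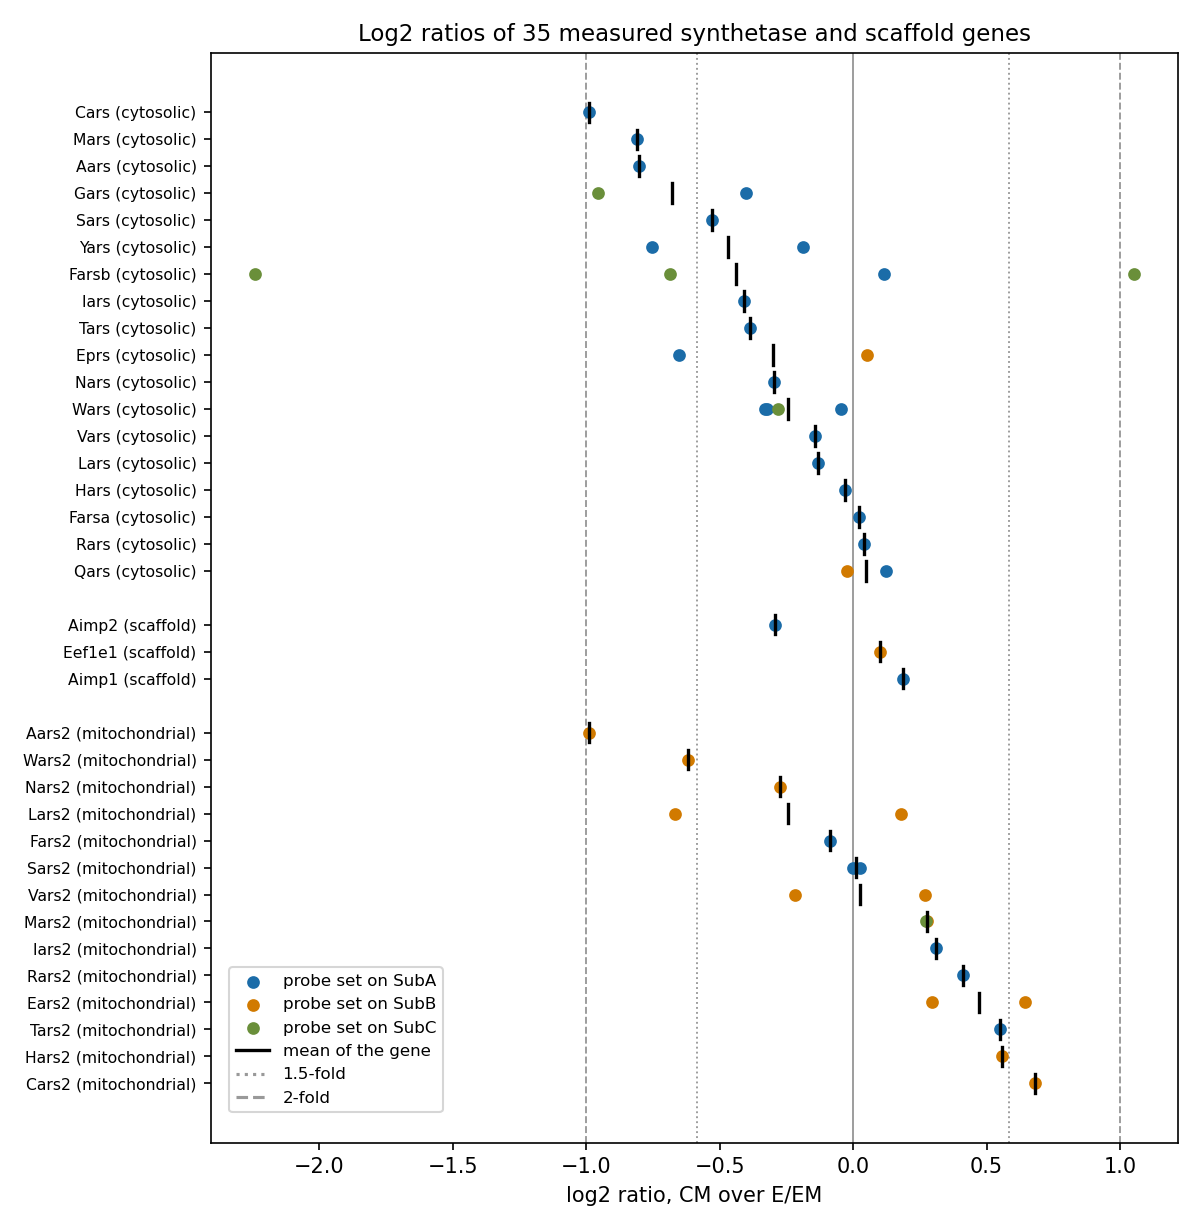
Log2 ratio of CM over E/EM intensity for each measured gene, with 1 point per probe set coloured by array type, a black bar for the gene's mean, dotted lines at 1.5-fold and dashed lines at 2-fold. Of 18 cytosolic enzymes 15 lie left of 0 and of 14 mitochondrial enzymes 5 do, and the probe sets of Farsb span from -2.24 to 1.05.

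The mitochondrial synthetases were not lower in CM cells as a group. Of 14 measured enzymes 9 had a positive and 5 a negative ratio, with a median of 0.15 and a range from -0.99 to 0.68. No gene mean passed 2-fold, though single probe sets of Nars2 and Mars2 that were above the floor in 1 kind of cell give bounds near 2-fold, in opposite directions. Cars2, the mitochondrial cysteine enzyme, was the highest, with 889.4 in CM and 554.4 in E/EM cells, a ratio of 0.68, and it was the only gene mean at least 1.5-fold higher, 1 of 14 against 10.1% of all genes. Hars2, for histidine, had 452.0 in CM and 306.9 in E/EM cells (0.56). Tars2, for threonine, had 446.8 in CM and 305.2 in E/EM cells on SubA (0.55), and its SubC probe set was under the floor with 4.8 in CM and 71.5 in E/EM cells.

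Ears2 puts glutamate on the mitochondrial tRNAs for glutamate and, as a first step, for glutamine. It was higher in CM cells by both SubB probe sets, 402.4 in CM against 327.4 in E/EM cells and 185.8 in CM against 118.9 in E/EM cells, with a mean ratio of 0.47 ± 0.24 (SD, 2 probe sets). Rars2, for arginine, had 1097.2 in CM and 824.9 in E/EM cells (0.41), and Iars2, for isoleucine, had 1470.1 in CM and 1186.7 in E/EM cells (0.31). Mars2, for methionine, gave 1051.3 in CM and 866.8 in E/EM cells on SubB and 376.8 in CM and 312.0 in E/EM cells on SubC, ratios that average to 0.28 ± 0.0043 (SD, 2 probe sets). Another Mars2 probe set was above the floor in CM cells alone, 172.2 in CM against 44.9 in E/EM cells, which puts it at least 1.95-fold higher in CM cells. Sars2, for serine, had 353.1 in CM and 347.2 in E/EM cells by its brighter probe set, with a mean ratio of 0.01 ± 0.02 (SD, 2 probe sets).

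Aars2 and Wars2 went the other way, with gene means at least 1.5-fold lower. These 2 of 14 are a share close to the 13.9% of all genes, so the count says nothing particular about the mitochondrial enzymes. Aars2, the alanine enzyme, had 187.2 in CM against 371.6 in E/EM cells, a ratio of -0.99. Wars2, the tryptophan enzyme, had 661.9 in CM against 1016.4 in E/EM cells (-0.62). Nars2, for asparagine, had 472.7 in CM and 571.4 in E/EM cells (-0.27), and a second probe set, above the floor in E/EM cells alone with 79.3 in CM and 190.5 in E/EM cells, puts it at least 2.16-fold lower in CM cells. With the floor halved, both probe sets entered the mean, which was -0.77, and 3 of 14 enzymes were 1.5-fold lower. Fars2, for phenylalanine, had 412.4 in CM and 438.3 in E/EM cells (-0.09).

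The probe sets of Lars2 and of Vars2 disagreed in sign. Lars2, for leucine, had 411.2 in CM and 362.7 in E/EM cells by one and 132.7 in CM and 210.5 in E/EM cells by the other, a mean ratio of -0.24 ± 0.60 (SD, 2 probe sets). Vars2, for valine, had 1180.9 in CM and 1371.5 in E/EM cells by one and 246.2 in CM and 204.0 in E/EM cells by the other, a mean of 0.03 ± 0.34 (SD, 2 probe sets). Of the 11 genes with more than 1 measured probe set, 6 had none on opposite sides of 0, and Eprs, Farsb, Qars, Lars2 and Vars2 did.

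The cytosolic median lay 0.50 below the mitochondrial one on the log2 scale. The array types carry the compartments unevenly, since SubA held 21 of 28 measured cytosolic probe sets and SubB 12 of 19 mitochondrial ones. Within SubA the gap was -0.65, with a median of -0.34 for 18 cytosolic enzymes and 0.31 for 5 mitochondrial enzymes. SubB and SubC without SubA measured only 5 cytosolic and 9 mitochondrial enzymes and gave a gap of -0.31. With 1 array per kind and type no test of this difference was possible.

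Where both enzymes of an amino acid were measured, 14 pairs over 13 amino acids could be set side by side, and the cytosolic ratio was the lower in 10. Phenylalanine entered as a Farsa and as a Farsb pair, and the 10 include the Farsb pair, though Farsb has no settled direction. For valine, also among the 10, the ratios were -0.14 for Vars and 0.03 for Vars2. Both are smaller in size than the control probe sets' median SD of 0.26. The widest gap was for cysteine, with -0.99 for Cars and 0.68 for Cars2. Methionine followed, with -0.81 for Mars and 0.28 for Mars2, then threonine, with -0.39 for Tars and 0.55 for Tars2, and isoleucine, with -0.41 for Iars and 0.31 for Iars2. Alanine was an exception, since Aars at -0.80 and Aars2 at -0.99 were both lower in CM cells. For tryptophan the mitochondrial enzyme had the lower ratio, -0.24 for Wars and -0.62 for Wars2. The pair for asparagine hardly differed, with -0.30 for Nars and -0.27 for Nars2.

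**Figure D3:**
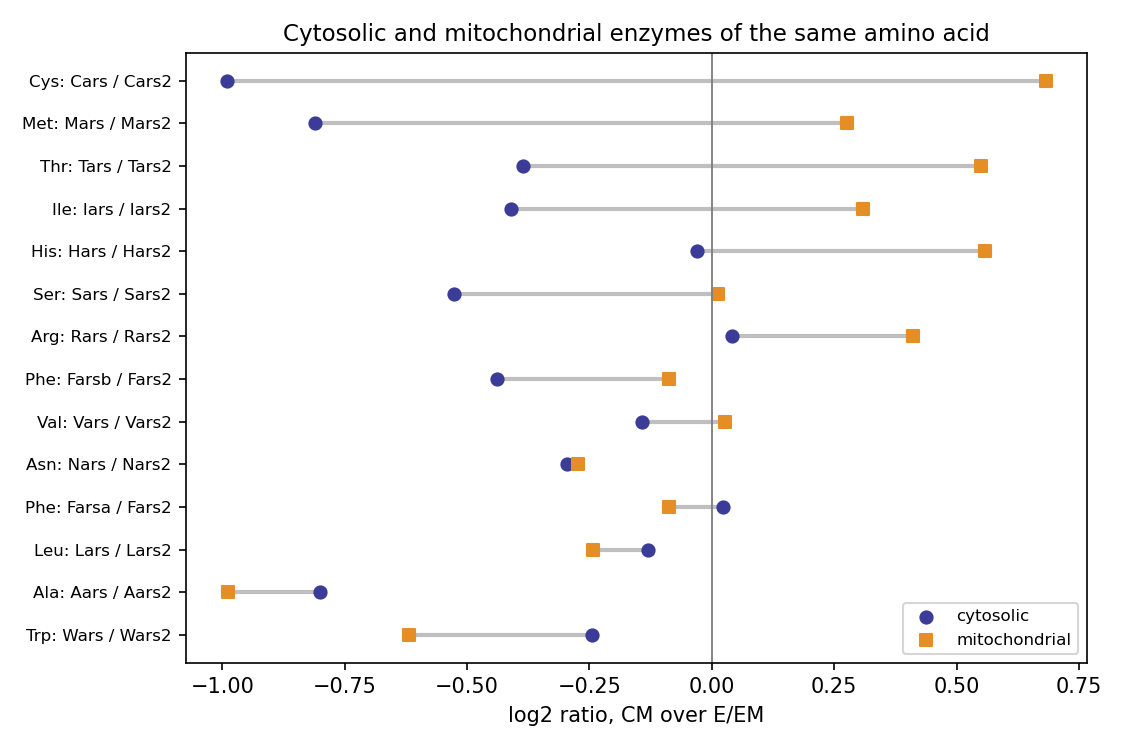
Log2 ratios of CM over E/EM intensity for the cytosolic (circles) and mitochondrial (squares) enzymes of the same amino acid, sorted by their difference. The circle lies left of the square in 10 of 14 pairs, most widely for cysteine (-0.99 and 0.68), and right of it for tryptophan, alanine, leucine and the Farsa pair.

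Synthetases fall into 2 unrelated structural classes, which differ in the fold of their catalytic domain. No test of a difference between the classes was possible. Among cytosolic enzymes the median was -0.24 for 9 of class I and -0.41 for 8 of class II, leaving out Eprs, which has a domain of each. Among mitochondrial enzymes it was 0.29 for 8 of class I and -0.04 for 6 of class II.

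Promoter windows of RefSeq (GRCm38.p6) were searched on both strands for TGATGNAA, the core of the C/EBP-ATF response element through which ATF4 acts on many amino acid genes. The windows span 300 bases, most of them before the start of an annotated transcript, called the start below. This start need not be the first base of the gene, and among others for Aars and Yars it is not. Windows existed for 28 of the 36 genes. The core was present in 5 of 12 cytosolic enzymes (Aars, Gars, Iars, Tars and Yars), 0 of 13 mitochondrial enzymes and none of the scaffold genes. It was in 4.51% of all 27025 genes with a window. The E-box CACGTG, bound by MYC among others, was in 4 of 12 cytosolic and 1 of 13 mitochondrial enzymes and in 8.09% of all genes. The 5 cytosolic enzymes with the core had ratios from -0.80 to -0.39, and the 6 measured ones with a window but no core had ratios from -0.81 to 0.05. Cars, the lowest measured cytosolic enzyme at -0.99, had no window and was not searched. Nor were Hars, Lars, Nars, Rars, Vars and Wars, whose ratios ran from -0.30 to 0.04. A match is only a run of letters, and Mars and Sars were among the lower enzymes with a window but no match.

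The 3 lowest cytosolic enzymes with the core are shown because their signals were all lower in CM cells, each with 130 bases before and 30 after the start, on the plus strand, which is also the strand of these genes. Capitals mark the core in either orientation. Aars lies at chr8:111033712-111033871, and its 2 cores begin 112 bases before and 9 bases after the start. Gars lies at chr6:55037871-55038030, with its core 30 bases before the start, and Yars at chr4:129189773-129189932, with its core 3 bases after the start.
Aars: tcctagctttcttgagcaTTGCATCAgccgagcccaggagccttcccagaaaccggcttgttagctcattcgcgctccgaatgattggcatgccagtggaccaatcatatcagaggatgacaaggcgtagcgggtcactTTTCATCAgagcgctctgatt
Gars: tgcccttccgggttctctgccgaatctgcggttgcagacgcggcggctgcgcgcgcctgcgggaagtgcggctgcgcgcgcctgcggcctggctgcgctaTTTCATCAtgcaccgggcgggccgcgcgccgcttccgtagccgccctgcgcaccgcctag
Yars: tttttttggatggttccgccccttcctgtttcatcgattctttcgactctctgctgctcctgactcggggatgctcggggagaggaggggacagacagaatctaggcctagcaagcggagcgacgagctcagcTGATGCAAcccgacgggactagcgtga

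Other genes of the amino acid response, with no synthetase among them, were mostly lower in CM cells. Of 28 measured genes 24 had a negative ratio, against 50.3% of all genes, and the median was -0.84. At least 2-fold lower were 13, against 5.61% of all genes, and 0 were 2-fold higher, against 2.73%. Gpt2, an alanine transaminase, had 91.9 in CM against 605.5 in E/EM cells (-2.72), with the CM value near the floor. Atf5, a transcription factor induced with ATF4, had 73.4 in CM against 380.9 in E/EM cells (-2.38). Sesn2, a stress-induced inhibitor of mTORC1, had 620.0 in CM against 3343.6 in E/EM cells (-2.43), and the pseudokinase gene Trib3 248.8 in CM against 1059.9 in E/EM cells (-2.09). The transporter gene Slc1a4 and the stress gene Nupr1 were at least 8.50-fold and 6.96-fold lower. Atf4 itself, singled out after its value was seen, had 2763.3 in CM and 4975.8 in E/EM cells (-0.85), a ratio close to those of Mars and Aars. The median rests on SubA, at -0.84 over 23 genes, while 13 genes on SubB and SubC alone gave -0.13. On those array types the 5 measured cytosolic synthetases had a median of -0.28, so the order of the lists turned round. Matches to TGATGNAA were found in 9 of the 29 genes of this list with a window, against 4.51% of all genes with a window. Of the genes named here, Trib3, Slc1a4 and Nupr1 were among the 9, and Gpt2, Sesn2, Atf5 and Atf4 were not.

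**Figure D4:**
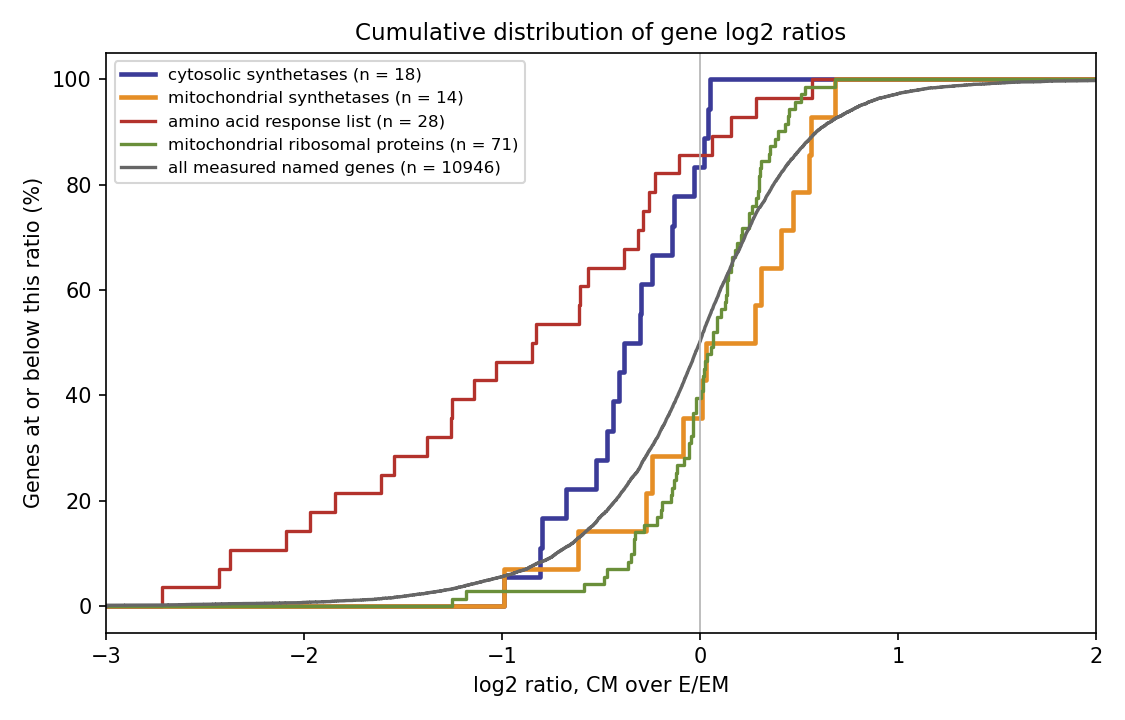
Share of genes (percent) at or below each log2 ratio of CM over E/EM intensity, for cytosolic and mitochondrial synthetases, the amino acid response list, mitochondrial ribosomal proteins and all 10946 measured named genes. The cytosolic curve lies left of the curve of all genes, with a median of -0.34 against -0.0025, and the mitochondrial one mostly right of it, with a median of 0.15.

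The genes of eIF2, its exchange factor and its kinases had a median of -0.20 over 13 measured genes. Eif2ak3, the endoplasmic reticulum stress kinase PERK, alone was 2-fold lower or more, with 277.6 in CM and 608.2 in E/EM cells (-1.13). Eif2s3x, a subunit of eIF2, had -0.54 ± 0.82, the exchange factor subunit Eif2b4 0.98 ± 1.28 and the double-stranded RNA kinase Eif2ak2 0.75 ± 1.06 (SD, 2 probe sets each), so none of these has a settled direction. Interferon gamma response genes, which bear on Wars, had a median of -0.03 over 10 genes. Gbp3, a guanylate-binding protein, had -0.93 and was the only one at least 1.5-fold lower. Gbp2 had -0.19, the transcription factor Irf1 -0.12 and the receptor chain Ifngr2 0.30 ± 0.42 (SD, 2 probe sets).

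Genes that make or use tRNA otherwise did not show the cytosolic pattern. RNA polymerase III genes, which transcribe tRNA, had a median of 0.11 over 18 genes, of which 13 were positive. Polr3e, a subunit, was 2-fold higher in CM cells at 1.10 ± 0.06 (SD, 3 probe sets), the initiation factor Brf1 had 0.84, the subunit Polr3b 0.62 and the repressor Maf1 -0.44 ± 0.79 (SD, 2 probe sets). The tRNA processing and modification genes had a median of 0.01 over 41 genes. Among them the methyltransferase Trdmt1 had a ratio of 1.06, Ftsj1, also a methyltransferase, had 227.2 in CM and 113.6 in E/EM cells, and Trmt5, which methylates guanosine, had a ratio of 0.92, while Dus2, a dihydrouridine synthase, had -0.76 ± 0.48 (SD, 2 probe sets). Cytosolic elongation factors, with the kinase of Eef2 counted among them, had a median of -0.03 over 5 genes. Eef2 had -0.30 ± 0.34 (SD, 2 probe sets), Eef1d 0.21 and Eef1a1 0.04. The kinase gene Eef2k had -0.20 ± 0.31 (SD, 5 probe sets).

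Other lists of mitochondrial translation had medians near or above 0, with single genes on both sides. Mitochondrial translation factors had a median of 0.24 over 12 genes, with the release factors Mtrf1l and Mtrf1 at 0.89 and 0.88 and the elongation factor Gfm1 at 0.64 ± 0.19 (SD, 2 probe sets). Qrsl1, the subunit of the amidotransferase that converts the glutamate placed by Ears2 into glutamine, had 0.72. Mitochondrial ribosomal proteins had a median of 0.06 over 71 genes, of which 43 were positive. Mrps6 and Mrps16 were at least 2-fold lower, at -1.25 and -1.18, Mrpl54 had -0.58 and Mrpl41 0.68 ± 0.06 (SD, 2 probe sets). Apart from mitochondrial translation, proteins related to synthetases had a median of 0.29 over 6 genes. Among these the alanyl-tRNA editing protein Aarsd1 had 0.82, Sephs1, a relative of selenophosphate synthetase, 0.41, the prolyl-tRNA editing protein Prorsd1 0.35 ± 0.22 (SD, 2 probe sets) and the selenocysteine tRNA kinase Pstk 0.23.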

How the data were processed

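The authors deposited a table of intensities on a linear scale for each array type, 1 value per probe set. For the array software and any scaling, nothing is given in the sources used here. Leaving out the lowest and highest 2% of values, each array's mean lay between 500.1 and 500.3, so the intensities were used as deposited. Symbols were taken from the platform annotation of GEO, where Mars is written Mars1, and 1 probe set with several symbols (Aars and Exosc6) was not counted. The floor of an array type was the 90th percentile, on whichever of its 2 arrays this was higher, of 15 bacterial poly-A control probe sets. A gene above it in 1 kind of cell only is given as at least N-fold, its signal over the floor. Genes were counted by size, at 2-fold and 1.5-fold. Every member was named, and from each list the 4 largest ratios in size and bounds of at least 4-fold. Marker lists are given by their sums. The members and lists were chosen with earlier results of these data known, so the low values of the amino acid response list are no independent support. There were 12 alternatives. Python 3.11.15, numpy 2.4.6 and pandas 2.3.3 were used, and the calculation was tested on simulated data.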

Additional observations from a re-analysis of the deposited data

How the results depend on the processing

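The cytosolic median kept its sign under all 12 alternatives, from -0.39 to -0.24, as did the mitochondrial median, from 0.03 to 0.31, and their difference, from -0.65 to -0.31. Of 84 comparisons of main results with an alternative 7 moved. Centring each table on its median brought 1 cytosolic enzyme, Cars at -1.01, to 2-fold lower. A floor set by the 60th percentile left 2 of 17 cytosolic and 1 of 11 mitochondrial enzymes 1.5-fold lower. A pseudocount of 50 with no floor left 1 mitochondrial enzyme there and SubA alone 0 of 5. SubB and SubC without SubA gave 2 of 5 cytosolic enzymes 1.5-fold lower and a median of -0.13 for the amino acid response list. Of 386 comparisons for single genes 13 moved. That count leaves out some changes of sign, such as Farsb at 0.12 on SubA alone and Vars2 at -0.22 by the brightest probe set. The brightest probe set gave Farsb 1.05, Eprs 0.05 and Lars2 0.18, the halved floor gave Mars2 0.83 and Nars2 -0.77, and the pseudocount gave Tars2 -0.33 and Hars2 0.18. The brightest setting keeps 1 probe set per gene, while the halved floor and the pseudocount let in probe sets under the main floor. Why the probe sets of a gene differ was not tested. No paired analysis was possible because each group has 1 array. With 1 array per kind and type, small ratios near the floor are the least certain.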
